A study of Mus musculus with 20 samples.

Results

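The stearoyl-CoA desaturases of the mouse are encoded by Scd1, Scd2, Scd3 and Scd4, which lie side by side on chromosome 19, and they were described together with AC151478.3, a non-coding transcript next to Scd1. These 5 genes, of 55401 in the deposited count table, were chosen by name with their diet values in these libraries already known, so their levels by diet are given as a description with no test. PolyA RNA of eWAT, the white fat pad on the epididymis, was sequenced in 20 libraries, 10 from mice under random food restriction (Restricted, a regime that joins intermittent fasting with 5% calorie restriction) and 10 from mice on a control diet (Control). The sources used here name no strain, genotype, age or duration of the regime. The labels mark 3 Restricted and 7 Control libraries as contaminated with spermatocytes, germ cells of the testis (label Yes), and 7 Restricted and 3 Control libraries as not contaminated (label No). The labels do not say whether each library came from its own mouse, so the spread between libraries may be in part technical.

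Stearoyl-CoA desaturases sit in the membrane of the endoplasmic reticulum and place a double bond in saturated fatty acids, which turns stearate into oleate and palmitate into palmitoleate. They draw electrons from NADH through cytochrome b5 reductase and cytochrome b5, and their products are the main fatty acids of stored triglyceride and of membrane phospholipid. In the mouse Scd1 is the isoform of liver and fat, Scd2 is best known from the brain and the newborn, Scd3 from sebaceous and Harderian glands, and Scd4 from the heart.

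Because the 4 enzymes are near copies of each other, the length of the reads decides how well their counts are told apart. Reads were 52 bases long at each end. The window of 52 coding bases that the 4 genes have in common without a difference is shown first (GRCm38 build, transcripts of GENCODE vM21), because a read from it could come from any of them:
Scd1, Scd2, Scd3 and Scd4: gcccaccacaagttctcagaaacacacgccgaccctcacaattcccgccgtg
It lies at chr19:44401814-44401865 on the minus strand in Scd1, and on the plus strand at chr19:44299642-44299693 in Scd2, chr19:44235804-44235855 in Scd3 and chr19:44338943-44338994 in Scd4.

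The least alike aligned window of the same size shows what separates them, with the bases that differ from Scd1 in capitals:
Scd1, chr19:44403244-44403295, minus strand: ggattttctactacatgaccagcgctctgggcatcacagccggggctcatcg
Scd2, chr19:44298040-44298091, plus strand: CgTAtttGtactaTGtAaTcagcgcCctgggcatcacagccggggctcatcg
Scd3, chr19:44234223-44234274, plus strand: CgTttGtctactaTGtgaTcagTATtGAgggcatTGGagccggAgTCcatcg
Scd4, chr19:44337501-44337552, plus strand: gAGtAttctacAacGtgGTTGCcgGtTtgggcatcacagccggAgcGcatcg
Here Scd2 had 9, Scd3 17 and Scd4 14 differences from Scd1. Over the whole coding sequence, Scd1 was 90.3% identical to Scd2, 91.5% to Scd3 and 85.1% to Scd4.

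Of all windows of 52 bases in the Scd1 transcript, 212 of 4781 (4.43%) also occurred in a transcript of another gene. The share was 3.76% for Scd2, 6.17% for Scd3 and 5.71% for Scd4. The rest of each transcript had no exact copy of this length on the same strand in a transcript of another gene. Near copies and the opposite strand were not searched. The shared windows weigh most on the scarce copies: 161 of 3438 windows of Scd3 (4.68%) and 77 of 3255 of Scd4 (2.37%) were also in Scd1, while Scd3 had 3.49 ± 0.951 counts per 100000 Scd1 counts in Restricted and 4.23 ± 1.02 in Control libraries (SD, n = 10 each). The sources used here do not say how the counting divided such reads, and the counts of Scd3 and Scd4 are uncertain for that reason.

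AC151478.3 (ENSMUSG00000118076.1) is annotated as a long intergenic non-coding RNA of 4 exons on the plus strand, at 44419610 to 44437886 of chromosome 19. Scd1 runs the other way, and 11730 bases lie between their annotated 5′ ends. None of the 972 windows of 52 bases in AC151478.3 occurred in a transcript of another gene. The first 120 bases of its first exon, which tie the name to a position, are given in lower case with no base singled out:
AC151478.3, chr19:44419610-44419729, plus strand: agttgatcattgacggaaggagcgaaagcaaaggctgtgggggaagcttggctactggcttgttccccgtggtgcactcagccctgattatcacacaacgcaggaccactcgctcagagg

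The libraries held 14306528 to 44061508 counts. All 5 genes passed the filter on low counts. Levels are given as CPM, counts scaled to a common library size by TMM factors that equalise composition between libraries. Skeletal muscle transcripts were present in 6 libraries (Restricted 1 and Control 1 to 5), where the 8 listed muscle genes summed to 862.9 to 3706 CPM, against 21.6 to 120 CPM in the other 14. Restricted 1 also had the highest level of 4 of the 5 genes, so values without it and without all 6 libraries are given where they differ. White adipocyte markers, all 8 of 8 detected at 1 CPM or more, summed to 28878 to 37978 CPM in Restricted and 23856 to 31372 CPM in Control libraries, so the defining markers of the labelled tissue were present.

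Scd1 had the most counts of all genes in each of the 20 libraries, with no correction for gene length. Its level was higher under random food restriction with almost no overlap between the diets. Scd1 (ENSMUSG00000037071.3, chromosome 19, 44394455 to 44407879, minus strand, 6 exons) had 40052 CPM in the lowest, 58323 in the median and 92460 in the highest Restricted library, against 29690, 34139 and 41563 CPM in the lowest, median and highest Control library. Of the Restricted libraries, 9 of 10 were above every Control library, and Restricted 3 alone fell inside the Control range, below Control 8. Restricted 1, Restricted 10 and Restricted 5 were the highest, at 92460, 90242 and 77982 CPM, and the other 7 lay at 60877 CPM or less.

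The Restricted mean of Scd1 was 63060 ± 17955 CPM and the Control mean 34693 ± 3304 CPM (SD, n = 10 each). The log2 fold change of Restricted over Control was 0.83 ± 0.147 (SE) with the contamination label in the model. The libraries differed more from each other within the Restricted group: the coefficient of variation was 28.5% in Restricted and 9.52% in Control libraries. Without Restricted 1 the log2 fold change of Scd1 was 0.63, and without the 6 libraries with muscle transcripts it was 0.59. Scd1 averaged 33662 ± 2385 CPM in Control 1 to 5, which held muscle transcripts, and 35725 ± 4027 CPM in Control 6 to 10, which did not reach their level (SD, n = 5 each). These sets also differ in replicate number, and the part of muscle transcripts in the Scd1 level was not tested.

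**Figure D1:**
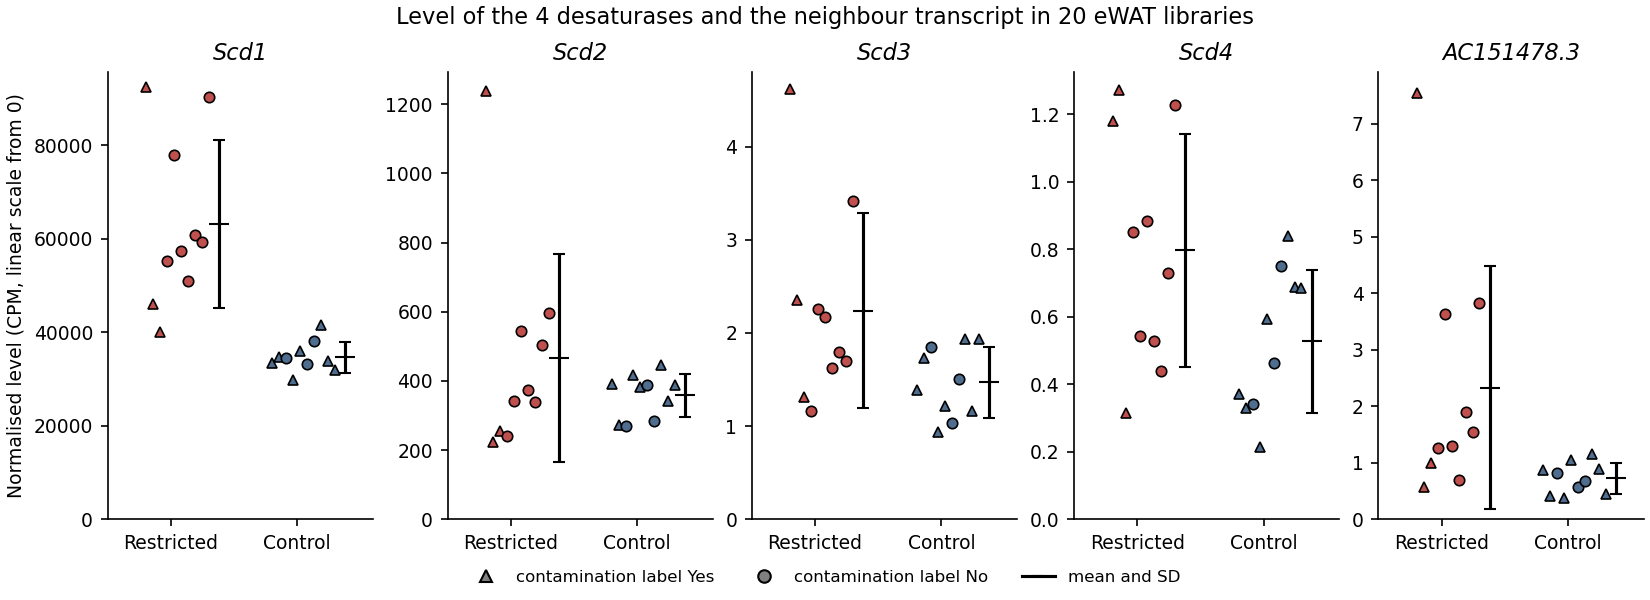
Level of each gene in CPM (linear axes that start at 0) in the 10 Restricted libraries, left in each panel, and the 10 Control libraries, right; triangles are libraries labelled Yes and circles libraries labelled No, and the black bar is the mean with its SD. In the Scd1 panel 9 of 10 Restricted libraries lie above all Control libraries, while in the Scd2 panel the Restricted libraries lie on both sides of the Control libraries.

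As a share of all counts, which needs no scaling factor, Scd1 took 5.97% ± 1.30 of the Restricted and 3.60% ± 0.308 of the Control libraries (SD, n = 10 each). The Restricted share was 4.17% in the lowest, 5.68% in the median and 8.07% in the highest library, against 3.09%, 3.59% and 4.20% in Control libraries. The order of the libraries at the top was the same as for CPM. The ratio of the group means was 1.66 for the share and 1.82 for CPM. The TMM factors were 0.874 in Restricted 1 and 0.869 in Restricted 10, which raises their CPM, against 1.01 to 1.10 in Control libraries.

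All 5 genes together took 6.02% ± 1.32 of the counts in Restricted and 3.64% ± 0.308 in Control libraries (SD, n = 10 each), a difference of 2.38 percentage points. Without Scd1 the other 4 made up 0.0442% ± 0.0256 of the counts in Restricted and 0.0375% ± 0.00667 in Control libraries. Restricted 1 had the largest such share, 0.109%, so in each library the family share was nearly that of Scd1.

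**Figure D2:**
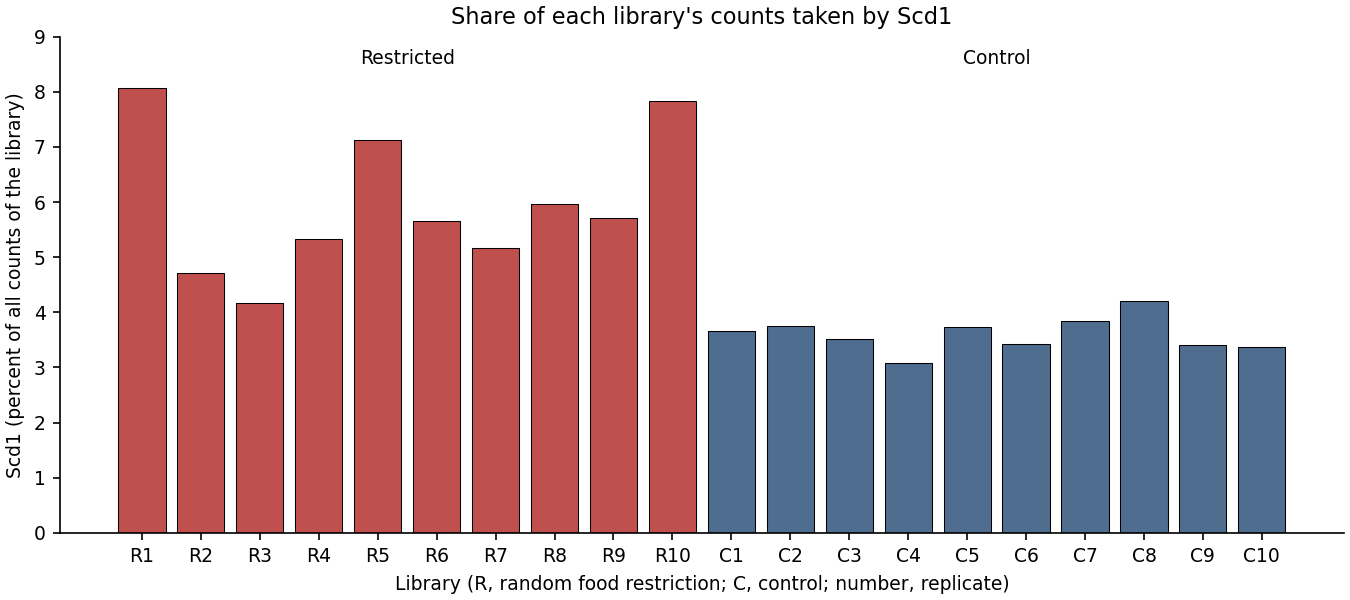
Scd1 counts as percent of all counts, 1 bar a library, with Restricted libraries (R1 to R10) on the left and Control libraries (C1 to C10) on the right. The bars run from 4.17% to 8.07% in Restricted and from 3.09% to 4.20% in Control libraries, with R1, R10 and R5 the tallest.

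Scd2 was the second desaturase of the tissue but did not follow the diets as Scd1 did. Scd2 (ENSMUSG00000025203.6, 44293674 to 44306864, plus strand) had 223, 358 and 1239 CPM in the lowest, median and highest Restricted library, against 269, 385 and 447 CPM in Control libraries. Of the Restricted libraries, 4 lay above and 3 below every Control library, and Restricted 1, at 1239 CPM, stood apart from the next, Restricted 10, at 598 CPM. The median was thus lower and the mean higher in Restricted libraries, with means of 466 ± 301 CPM in Restricted and 358 ± 63.2 CPM in Control (SD, n = 10 each). The log2 fold change of Scd2 was 0.51 ± 0.254 (SE), but it was -0.03 without Restricted 1 and -0.14 without the 6 libraries with muscle transcripts. Restricted 2 to 10 averaged 380 ± 138 CPM (SD, n = 9).

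The abundance of Scd2 relative to Scd1 differed between the diets in the description. Per 1000 Scd1 counts there were 7.09 ± 2.80 Scd2 counts in Restricted and 10.4 ± 2.16 in Control libraries (SD, n = 10 each). Restricted values ran from 4.35 to 13.4, the highest again Restricted 1, and Control values from 7.44 to 14.1, so the groups overlapped. By rank of counts among all genes, with no correction for gene length, Scd2 stood between place 84 in Restricted 1 and place 623 in Restricted 2.

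Scd3 and Scd4 had few counts. Scd3 (ENSMUSG00000025202.8, 44203269 to 44242018, plus strand) had 20 to 82 counts a library and 894 in all, and Scd4 (ENSMUSG00000050195.8, 44333092 to 44346743, plus strand) had 5 to 31 counts a library and 329 in all. Scd3 was at 1.16, 1.99 and 4.61 CPM in the lowest, median and highest Restricted library, against 0.938, 1.45 and 1.94 CPM in Control libraries. Of the Restricted libraries, 5 were above every Control library, led by Restricted 1 and Restricted 10, and the other 5 lay inside the Control range. The log2 fold change of Scd3 was 0.69 ± 0.240 (SE), and 0.39 without Restricted 1. AC125101.1, a gene annotated on the opposite strand, overlaps Scd3 in position and averaged 0.0922 CPM over all libraries. No strand setting of the counting is given, so reads from bases that both might cover cannot be told apart. Whether their exons overlap was not checked.

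Scd4 was at 0.315, 0.790 and 1.27 CPM in the lowest, median and highest Restricted library, against 0.213, 0.530 and 0.840 CPM in Control libraries. Here too 5 of 10 Restricted libraries exceeded every Control library, but Restricted 2 was the highest and Restricted 3 the lowest. The log2 fold change of Scd4 was 0.63 ± 0.306 (SE). It was 1.19 in replicates 1 to 5 of both diets alone, 0.30 in replicates 6 to 10 alone and 0.19 without the 6 libraries with muscle transcripts.

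AC151478.3 had few reads but the largest fold change of the 5 genes. It had 12 to 134 counts in Restricted and 9 to 42 in Control libraries, and its level was 0.565, 1.42 and 7.54 CPM in the lowest, median and highest Restricted library, against 0.384, 0.747 and 1.16 CPM in Control libraries. Of the Restricted libraries, 7 of 10 were above every Control library, while Restricted 2, Restricted 3 and Restricted 7 were inside the Control range. The highest were Restricted 1, Restricted 10 and Restricted 5, at 7.54, 3.82 and 3.63 CPM, the same libraries in the same order as for Scd1.

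The means of AC151478.3 were 2.33 ± 2.15 CPM in Restricted and 0.728 ± 0.273 CPM in Control libraries (SD, n = 10 each), and the log2 fold change was 1.79 ± 0.432 (SE). Restricted 1 decided the size of this value: without it the log2 fold change was 0.92, and without the 6 libraries with muscle transcripts it was 0.88. Of AC151478.3 there were 3.24 ± 2.04 counts per 100000 Scd1 counts in Restricted and 2.07 ± 0.670 in Control libraries.

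In edgeR's quasi-likelihood fit over all 17105 tested genes, 12.5% were called by diet at an adjusted p under 0.05, 6.22% higher and 6.33% lower. DESeq2 called 1364 higher and 1281 lower of all 16835 genes to which it gave an adjusted p. The 5 genes were chosen with their diet values known, so no call by diet is given for them.

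**Figure D3:**
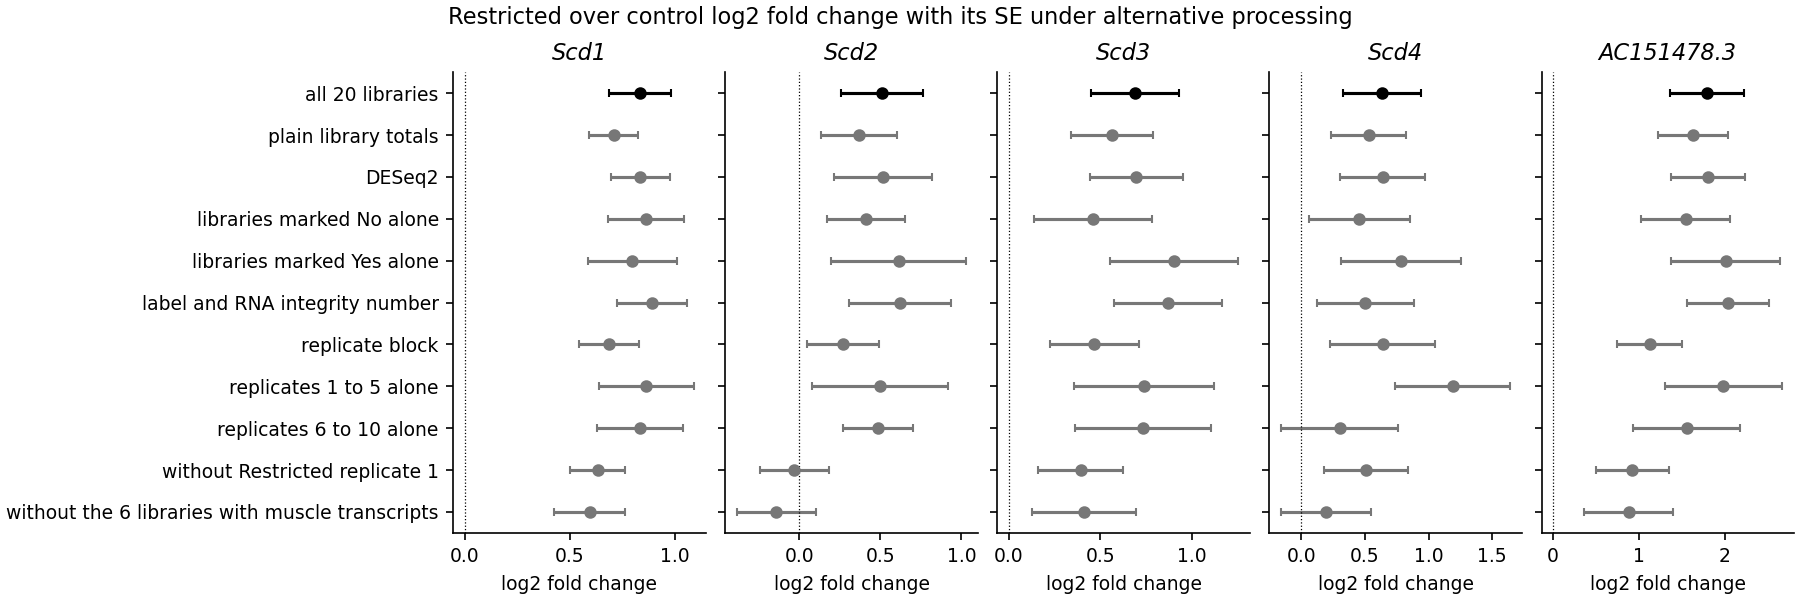
Log2 fold change of Restricted over Control (point) with its SE (bar) for each gene, with all 20 libraries at the top in black and 10 other ways of processing below in grey; the dotted line is 0. Scd1 stays between 0.59 and 0.89 in those shown, Scd2 falls to -0.03 and -0.14 in the last 2 lines, and AC151478.3 falls to 0.92 and 0.88 there.

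Levels can be compared between the genes only per length. Scd1 had 12890 ± 3670 CPM per kilobase in Restricted and 7092 ± 675 in Control libraries, and Scd2 85.3 ± 55.1 in Restricted and 65.6 ± 11.6 in Control (SD, n = 10 each). AC151478.3 followed with 2.27 ± 2.10 CPM per kilobase in Restricted and 0.712 ± 0.267 in Control libraries. Scd3 came next with 0.631 ± 0.296 in Restricted and 0.414 ± 0.107 in Control, and Scd4 last with 0.212 ± 0.0916 in Restricted and 0.140 ± 0.0562 in Control. The level of Scd1 was above that of Scd2, Scd2 above AC151478.3, and Scd3 above Scd4 in each of the 20 libraries. AC151478.3 was above Scd3 in 9 of 10 Restricted and 8 of 10 Control libraries, so these neighbours in the order were not separated in every library. Per length, the ratio of Scd1 to Scd2 was 177 ± 58.4 in Restricted and 112 ± 24.7 in Control libraries.

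The contamination label was not used to choose the genes and could be tested. With the diet in the model, 0 of the 5 genes differed between libraries labelled Yes and No, where 6.1% of all tested genes did, 5.7% higher and 0.403% lower in libraries labelled Yes. None of the 5 had an unadjusted p under 0.05 by label, where 2588 of the 17105 tested genes did. DESeq2 called 0 of the 5 as well, and 1317 over all genes. Scd1 averaged 41973 CPM in the 10 Yes and 55780 CPM in the 10 No libraries, with 3 Restricted libraries among the first and 7 among the second. With the diet in the model, its Yes over No log2 fold change was -0.08 ± 0.147 (SE; edgeR adjusted p = 0.874). The label values of the other 4 were 0.36 ± 0.254 for Scd2 (adjusted p = 0.578), 0.25 ± 0.240 for Scd3 (0.709), 0.17 ± 0.306 for Scd4 (0.857) and 0.39 ± 0.429 for AC151478.3 (0.749).

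Within the Restricted group, Scd1 averaged 59535 ± 28673 CPM in the 3 libraries labelled Yes and 64571 ± 14165 CPM in the 7 labelled No, and within Control 34447 ± 3727 CPM in 7 Yes and 35268 ± 2599 CPM in 3 No libraries. The diet log2 fold change of Scd1 was 0.80 in libraries labelled Yes alone and 0.86 in those labelled No alone. For AC151478.3 these values were 2.01 and 1.55. The test of the difference, an interaction of diet and label, called 0 of the 5 genes, with edgeR adjusted p of 0.883 to 0.969, and 0 of the 5 had an unadjusted p under 0.05. Over all 17813 genes that passed the filter of this fit, edgeR called 0 (0%), and 1105 had an unadjusted p under 0.05. DESeq2 called 5, with a p-value for 35641 genes.

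The ratio of each gene to Scd1 within a library was also compared between the labels, by a two-sided exact permutation of the label within each diet over all arrangements. The mean Yes minus No difference in the log2 ratio was 0.27 for Scd2 (exact p = 0.207), 0.29 for Scd3 (exact p = 0.109), 0.18 for Scd4 (exact p = 0.552) and 0.07 for AC151478.3 (exact p = 0.844). Adjusted over these 4 tests, the lowest p was 0.414. The Scd2 difference was 0.057 without Restricted 1 and 0.42 without Restricted 2.

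Beyond the diet means, the genes were compared library by library within a diet. The choice of genes knew their diet values, and Restricted 1, 10 and 5 led both Scd1 and AC151478.3 and so raised both Restricted means. The p-values in Restricted libraries are therefore not independent of that choice. Among the 10 Restricted libraries, log2 CPM of AC151478.3 and Scd1 ran together (Pearson r = 0.92, permutation p = 0.00031, 0.0062 adjusted over the 20 correlations of all pairs in both diets). Spearman's rho was 0.96 (permutation p = 5e-05, adjusted 0.001). Without Restricted 1 and Restricted 10, the libraries farthest from the median of Scd1, r was 0.85. In the 7 Restricted libraries labelled No alone r was 0.95 (exact permutation p = 0.000198, adjusted over 4 pairs 0.000794), and the ranks of the pair were identical. These 7 include Restricted 5 and Restricted 10, so the same limit holds for this p-value. The 3 Restricted libraries labelled Yes are too few for a value.

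In the 10 Control libraries the same pair had r = 0.67 (permutation p = 0.0304, adjusted 0.0817) and rho = 0.62 (permutation p = 0.0584, adjusted 0.167), and r fell to 0.29 without Control 8 and Control 4. Whether the relation differed between the diets was not tested. AC151478.3 had 9 to 42 counts in Control libraries, so counting error is a large part of its spread there. Both genes are scaled by the same total and TMM factor of a library.

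Scd1 and Scd2 were correlated in Restricted libraries with r = 0.76 (permutation p = 0.0105, adjusted 0.0429) and rho = 0.72 (permutation p = 0.0237, adjusted 0.167), but r was 0.45 without Restricted 1 and Restricted 10, so the relation rests on those libraries. In Control libraries r was -0.10 for this pair (permutation p = 0.790, adjusted 0.790). Scd1 and Scd3 had r = 0.78 in Restricted libraries (permutation p = 0.0089, adjusted 0.0429) and rho = 0.66 (permutation p = 0.0455, adjusted 0.167). Without Restricted 1 and Restricted 10 their r was 0.39. In the 7 Restricted libraries labelled No, r was 0.39 for Scd2 (exact permutation p = 0.370, adjusted 0.371) and 0.83 for Scd3 (exact permutation p = 0.0161, adjusted 0.0321). No pair of genes had an adjusted p under 0.05 in Control libraries.

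**Figure D4:**
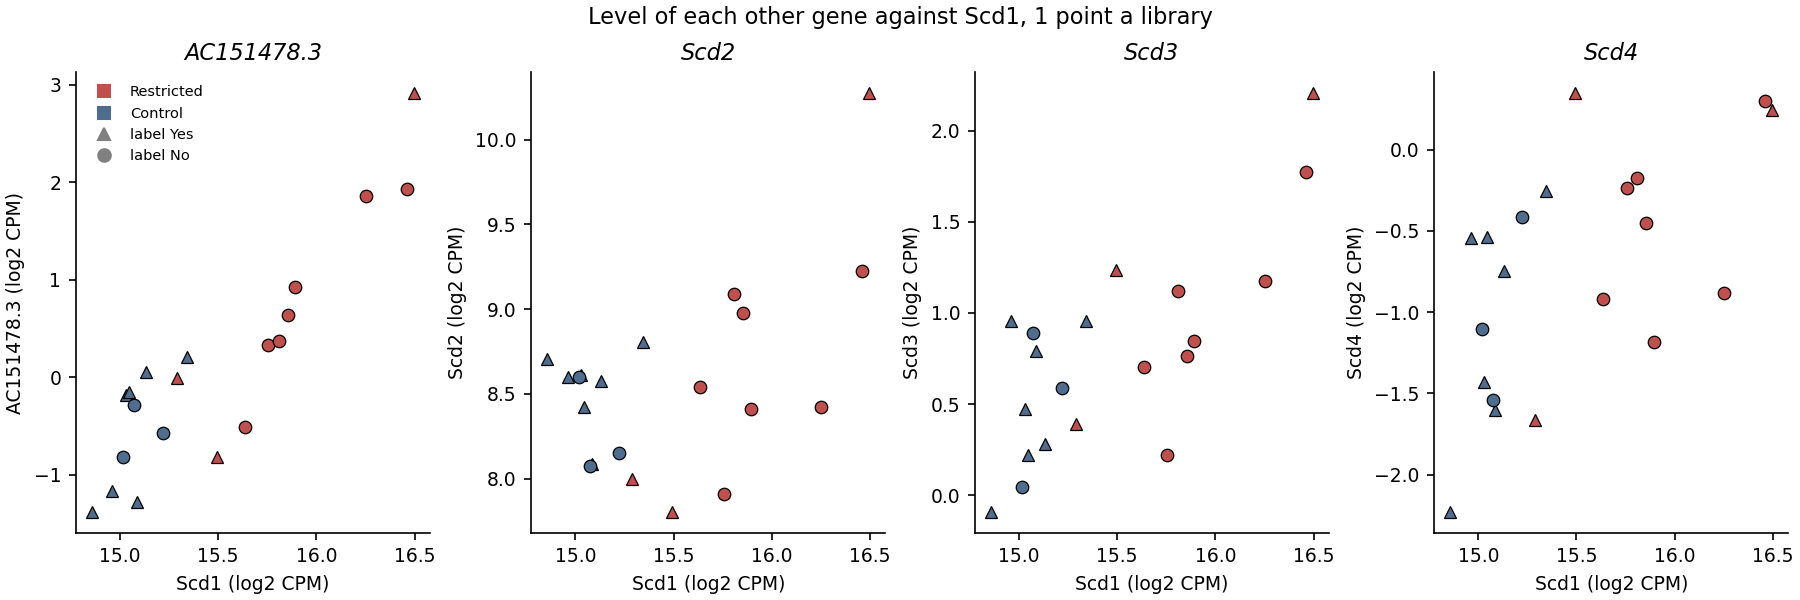
Log2 CPM of AC151478.3, Scd2, Scd3 and Scd4 (vertical axes) against log2 CPM of Scd1 (horizontal axes), 1 point a library, Restricted in red and Control in blue, triangles for label Yes and circles for label No. The Restricted points of AC151478.3 climb with Scd1 (r = 0.92), and the highest Restricted point in the Scd2 panel, Restricted 1, stands apart from the rest.

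Other cell types that a fat pad can hold were followed by marker lists. The brown or beige adipocyte list (6 of 6 genes detected, 3 at 1 CPM or more, 2 called higher by diet in a background of 6.22%) summed to 16.4 to 72.0 CPM in Restricted and 13.9 to 21.9 CPM in Control libraries, and its highest sums were in Restricted 10 (72.0 CPM), Restricted 1 (66.3 CPM) and Restricted 5 (47.5 CPM), the same 3 libraries that led Scd1 and AC151478.3. Ucp1, the defining gene of brown fat, was at 0 in Restricted 1 to 5. Macrophage markers, with 6 of 6 called lower by diet in a background of 6.33%, summed to 747 to 1204 CPM in Restricted and 1057 to 1415 CPM in Control libraries. In bulk tissue fewer cells of a type and less RNA per cell cannot be told apart. Sebaceous gland markers, of interest for Scd3, summed to 6.96 to 14.5 CPM in Restricted libraries (4 of 6 detected) and 5.88 to 112 CPM in Control libraries (5 of 6), with Awat1 at 0 throughout. The high value was in Control 2, whose Scd3 level was 1.73 CPM. The germ cell list summed to 3.11 to 90.1 CPM in Restricted libraries (7 of 8 detected, Sycp1 at 0) and 2.11 to 33.4 CPM in Control libraries (8 of 8). By label its median sum was 8.97 CPM in Yes libraries (2.11 to 90.1) and 4.55 CPM in No libraries (2.61 to 33.4). Control 6, labelled No, had 33.4 CPM, and Control 5, labelled Yes, had 2.11 CPM. The tests by label therefore concern the label as given, not the level of germ cell RNA. The epididymis list summed to 0.332 to 5.30 CPM in Restricted libraries (6 of 8, Lcn9 and Defb12 at 0) and 0.159 to 315 CPM in Control libraries (8 of 8). Skin or hair markers reached 8.73 CPM in Restricted (3 of 4) and 32.7 CPM in Control libraries (4 of 4). The part of these cells in the desaturase levels was not tested.

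Of 30 other genes within 500 kb of Scd1 in the table, 13 passed the filter and 2 were called by diet, in a background of 12.5%. Erlin1, a membrane protein of the endoplasmic reticulum, was higher (36.2 ± 3.06 CPM in Restricted, 31.2 ± 2.09 CPM in Control, SD, n = 10 each; log2 fold change 0.17, edgeR adjusted p = 0.0421), a call that was lost without any 1 of 16 of the 20 libraries. Dnmbp, a guanine nucleotide exchange factor, was lower (26.0 ± 1.62 CPM in Restricted, 29.8 ± 3.02 CPM in Control; log2 fold change -0.22, adjusted p = 0.0231), not called without Control 3 or Control 7.

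The nearest tested gene beyond AC151478.3 is AC151478.1, 45137 bases from Scd1. It averaged 1.71 ± 0.654 CPM in Restricted and 1.28 ± 0.390 CPM in Control libraries (log2 fold change 0.29, adjusted p = 0.477). Wnt8b, a Wnt ligand 85592 bases away, had a log2 fold change of 0.73 at 0.615 ± 0.407 CPM in Restricted and 0.386 ± 0.155 CPM in Control libraries (adjusted p = 0.199) and 0.31 without Restricted 1, and the values of both genes were negative in replicates 6 to 10 alone. Pax2 and Cpn1, called higher in libraries labelled Yes (adjusted p = 0.000167 and 0.00241 by edgeR), were not called by diet.

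**Figure D5:**
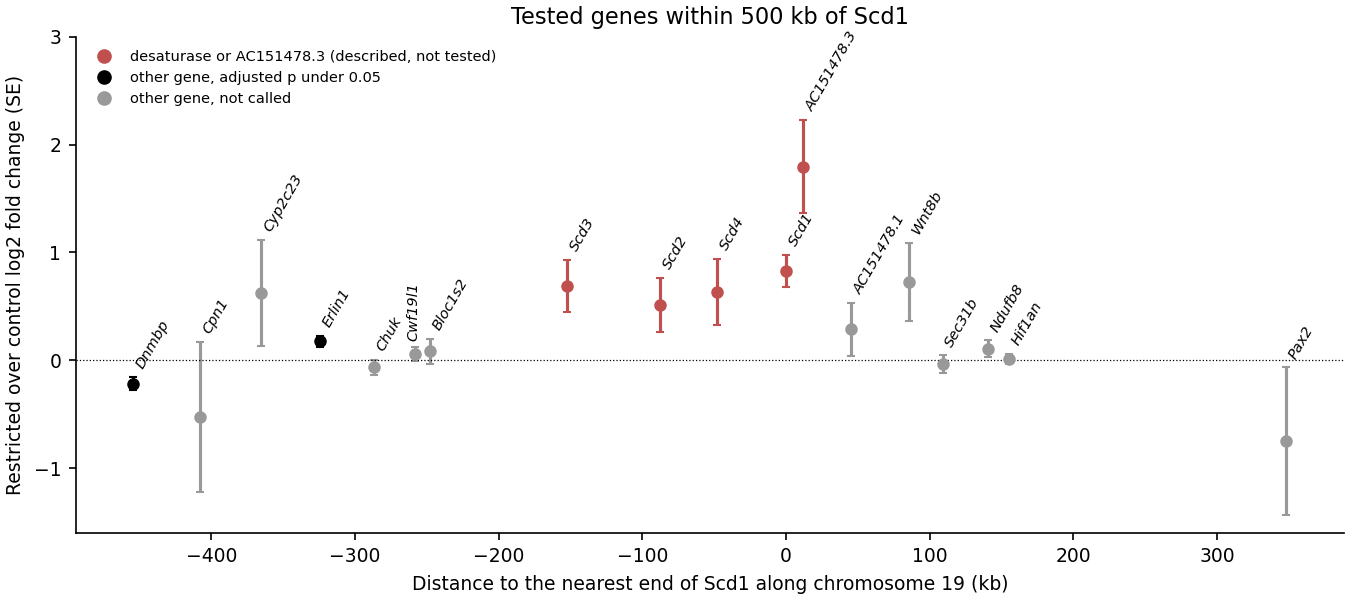
Log2 fold change of Restricted over Control with its SE (vertical axis) for each tested gene within 500 kb of Scd1, by distance from the nearest end of Scd1 in kilobases (horizontal axis); red points are the desaturases and AC151478.3, black points other genes called by diet and grey points other genes that were not. The red points lie between 0.51 and 1.79, and the called neighbours Dnmbp and Erlin1 at -0.22 and 0.17.

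The genes whose levels followed Scd1 most closely were found over all 20 libraries, after centring log2 CPM within each of the 4 groups of diet and label, among 9491 genes with a mean of 10 CPM or more. The closest was Lpcat3, which places polyunsaturated fatty acids in phospholipid (r = 0.96). Next came Acaa2, a thiolase of mitochondrial fatty acid oxidation (0.944), Tmem179 (0.942), Elovl6, the elongase that makes stearate from palmitate and so supplies the substrate of Scd1 (0.940), Parp1 (0.938), Vwa8 (0.938), Gapdh of glycolysis (0.937) and A530016L24Rik (0.936). These values describe the likeness and have no test, and without Restricted 1 they were 0.898 to 0.941. They come mostly from the Restricted libraries, where r was 0.972 to 0.991. In Control libraries r was lower, from 0.319 for Gapdh and 0.412 for Elovl6 to 0.706 for Lpcat3. Over all 20 libraries AC151478.3 stood at 0.904 and Scd3, Scd2 and Scd4 at 0.802, 0.704 and 0.511 by the same measure.

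Lpcat3 shows the pattern: 70.7, 90.1 and 164 CPM in the lowest, median and highest Restricted library, the lowest being Restricted 3 and the highest Restricted 1, against 73.1, 78.9 and 94.1 CPM in Control libraries. For AC151478.3 the closest genes were G6pdx, which makes NADPH in the pentose phosphate path (0.939), Kif13a, a kinesin (0.925), Mpc1-ps, a pseudogene that can share reads with its parent (0.910), and Elovl6 (0.905). Their r was 0.965 to 0.974 in Restricted libraries and 0.538 (Elovl6) to 0.810 (G6pdx) in Control libraries. Kif13a was followed at 101 ± 10.2 CPM in Restricted and 97.5 ± 3.87 CPM in Control libraries, with a diet log2 fold change of 0.04 (edgeR adjusted p = 0.692).

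Genes that make the substrate of the desaturases, carry their electrons, control Scd1 transcription or use their product were set beside them. Of 27 listed genes of de novo lipogenesis, 26 were tested, 4 were called higher and 0 lower by diet, in a background of 6.22% higher and 6.33% lower, and the median log2 fold change was 0.38, against 0.02 over all tested genes. At an unadjusted p under 0.05, 10 of the list were higher and 0 lower, against 4662 of all 17105 tested genes in either direction. DESeq2 called 4 higher and 0 lower, against 1364 higher and 1281 lower of all 16835 genes. These are also the backgrounds of the unadjusted and DESeq2 counts of the lists that follow. The 4 were Elovl6 (log2 fold change 2.05, edgeR adjusted p = 0.00933), Tecr, which completes each round of elongation (0.59, adjusted p = 0.0325), Acsl3, which activates fatty acids to their CoA form (0.47, adjusted p = 0.0156), and Elovl5, an elongase of polyunsaturated fatty acids (0.36, adjusted p = 0.00879). Without Restricted 1 the list had 2 genes called higher, Elovl5 and Acsl3, and 2 called lower, Elovl1 and Pnpla3, with a median of 0.05 (Tecr also lost its call without Control 3, Control 6 or Control 7). Without the 6 libraries with muscle transcripts it had 0 called higher and 1 lower, Pnpla3, with a median of 0.02. With plain library totals 4 were called higher and 2 lower, Elovl1 and Fads1, against 398 higher and 1913 lower over all tested genes. The calls over all tested genes were 741 higher and 1032 lower without Restricted 1, and 381 and 514 without the 6 libraries.

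Elovl6 was at 34.4, 69.9 and 771 CPM in the lowest, median and highest Restricted library, against 35.2, 55.4 and 86.8 CPM in Control libraries. Restricted 1, 10, 5 and 8 were above every Control library, and these are the 4 libraries that led Scd1. Without Restricted 1 the log2 fold change of Elovl6 was 0.90 and not called. The enzymes that make palmitate were not called: Fasn, fatty acid synthase, had 3573, 8710 and 33941 CPM in the lowest, median and highest Restricted library, against 5308, 8074 and 10204 CPM in Control libraries (log2 fold change 0.65, adjusted p = 0.218). Without Restricted 1 the log2 fold change of Fasn was -0.06, and without the 6 libraries with muscle transcripts -0.24. Acaca, which makes malonyl-CoA, had 0.75 (adjusted p = 0.0973), and 0.24 without Restricted 1. Acly, which makes acetyl-CoA from citrate, had 0.61 (adjusted p = 0.333), but -0.37 without Restricted 1.

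In the libraries without Restricted 1, the diet log2 fold change was 0.63 for Scd1, 0.90 for Elovl6 and 0.32 for Tecr. It was -0.06 for Fasn and -0.37 for Acly, and the difference between the genes was not tested. In Restricted 3, the lowest for Scd1, Fasn and Acly, Scd1 was at 40052 CPM, above 9 of the 10 Control libraries, whereas Fasn was at 3573 CPM and Acly at 340 CPM, below all of them.

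All 7 listed genes of desaturase electron transfer were tested and had positive values, with a median log2 fold change of 0.20, and 2 were called higher and 0 lower (background 6.22% higher), both at an adjusted and at an unadjusted p of 0.05 and by DESeq2. Cyb5a, the cytochrome b5 that hands electrons to the desaturase, averaged 610 ± 53.1 CPM in Restricted and 525 ± 42.5 CPM in Control libraries (log2 fold change 0.20, adjusted p = 0.0446), a call lost without any 1 of 13 of the 20 libraries. Cyb5r1, a cytochrome b5 reductase, averaged 51.6 ± 3.48 CPM in Restricted and 43.2 ± 3.31 CPM in Control libraries (0.25, adjusted p = 0.00551). Cyb5r3, the reductase that passes electrons from NADH to cytochrome b5, and Cyb5b, the form of the outer mitochondrial membrane, had 0.15 (adjusted p = 0.327) and 0.20 (adjusted p = 0.414), and both were below 0 without the 6 libraries with muscle transcripts. With plain library totals in place of TMM factors, 0 of the 7 were called, where 398 of all tested genes were called higher and 1913 lower.

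Of 27 listed genes that control Scd1 transcription, 2 were called higher and 1 lower (5 and 5 at an unadjusted p under 0.05, 3 and 3 by DESeq2), in a background of 6.22% higher and 6.33% lower, with a median log2 fold change of 0.05. With upper-quartile factors, plain library totals or a filter at a mean of 1 CPM, 4 were called lower (Med15, Sp1, Rxra and Srebf2). Over all tested genes these settings called 879, 398 and 1009 higher and 1189, 1913 and 1206 lower. The list median was -0.05 with plain totals, against -0.08 over all tested genes. Insig1, which holds the SREBP precursor in the endoplasmic reticulum and is itself an SREBP target, was higher (211 ± 135 CPM in Restricted, 117 ± 26.8 CPM in Control; log2 fold change 0.96, adjusted p = 0.0191), with 0.42 and no call without Restricted 1. Insig2, its relative, was higher with less spread (76.8 ± 6.77 CPM in Restricted, 59.7 ± 6.15 CPM in Control; 0.30, adjusted p = 0.00308). Med15, a Mediator subunit that SREBP binds, was lower (-0.20, adjusted p = 0.0140). Srebf1, the gene of SREBP-1, had 0.15 (adjusted p = 0.477), Mlxipl, the gene of ChREBP, 0.12 (adjusted p = 0.317), Sp1 -0.17 (adjusted p = 0.0535) and Thrsp, a lipogenic response gene, 0.47 (adjusted p = 0.212). Srebf1 was at -0.04 in replicates 6 to 10 alone and without the 6 libraries with muscle transcripts, and Thrsp at -0.06 in the second.

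Of 16 listed genes that pass acyl chains to glycerides, sterols and phospholipids, 1 was called higher and 0 lower (5 and 1 at an unadjusted p under 0.05, 2 and 0 by DESeq2; background 6.22% higher), with a median log2 fold change of 0.08, which was -0.02 without Restricted 1, without the 6 libraries with muscle transcripts or with plain library totals. The called gene, Mogat2, a monoacylglycerol acyltransferase, averaged 10.7 ± 7.04 CPM in Restricted and 4.73 ± 1.68 CPM in Control libraries (1.27, adjusted p = 0.00572), with Restricted 1 at 29.6 CPM, and without it the value was 0.72 and no longer called. Gpam, which starts glycerolipid synthesis, had 0.35 (adjusted p = 0.0790), Mogat1 -0.25 (adjusted p = 0.0752) and Lpcat3 0.32 (adjusted p = 0.107; 0.10 without Restricted 1). Of 8 adipocyte markers, 2 were called higher and 0 lower (4 and 0 at an unadjusted p under 0.05, 2 and 0 by DESeq2; background 6.22% higher), with a median of 0.19: Fabp4, a fatty acid carrier of adipocytes (0.32, adjusted p = 0.0135), and Lep, the hormone leptin (0.50, adjusted p = 0.0282; not called without Restricted 2, Restricted 3, Control 6 or Control 7). Lep did not share the order of Scd1, since Restricted 10 and Restricted 1 had the lowest Lep of the Restricted libraries, at 1068 and 1104 CPM. Pparg, the adipocyte regulator, had 0.20 (adjusted p = 0.0926) and Adipoq, the adipokine adiponectin, 0.19 (adjusted p = 0.131).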

How the data were processed

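PolyA RNA of 20 eWAT libraries was read as 52-bp paired ends after Trizol and RNeasy extraction, per the labels' protocols; their extraction text says QUAD, but the tissue label, eWAT, was followed. The authors deposited raw integer counts for each gene with its length in bases, and the values show no scaling or filter. According to the submitters' processing notes, GRCm38, STAR, Salmon and bcl2fastq 4.0.3 were used. The sources used here do not say which tool made the deposited counts. They name neither the annotation release nor the strand setting. Per the file headers, gene coordinates accompany the counts, and they are on GRCm38.

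The counts were fitted across all genes by the quasi-likelihood method of edgeR 4.0.16 (R 4.3.3), with contamination label and diet as terms and TMM scaling. Genes passed filterByExpr at a count minimum of 10, which kept 17105 genes with at least 99.722% of the counts of any library. Tests were two-sided, and p-values were adjusted by Benjamini-Hochberg with a threshold of 0.05. CPM divides a count by the tested genes' total times the TMM factor. SE is the size of the log2 fold change over the square root of F. Correlations used log2 CPM and 100000 permutations. Shared windows and coding alignments came from GENCODE vM21 transcripts with biopython 1.88. The steps were tested on simulated data.

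The members and lists were chosen with earlier results of these data known. Besides the members, up to 4 genes with the smallest p of each list, a set of lipogenic and adipocyte genes, every tested gene within 500 kb of Scd1, and the 8 genes most like Scd1 and 4 most like AC151478.3 are named. DESeq2 1.42.0, other scalings, filters, models and subsets were tried. No pair of libraries of the same diet agreed within counting noise (smallest chi-square per degree of freedom 9.735). Pairs across the diets were not compared. At 5 to 31 counts a library, as for Scd4, counting error is large.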

Additional observations from a re-analysis of the deposited data

Results flagged for a closer look

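A library far from the other 9 of its diet was looked for in 86 groups. The measure was the gap to the nearest library over the range of the group, against a critical value of 0.466. The groups were 43 quantities in each diet: the members, 2 ratios to Scd1, the family share and the named genes except those near Scd1. Chance alone gives about 1 in 20 for groups that are independent and not picked by their values. A library passed in 12 groups, and in 10 of them it was Restricted 1. Some genes were named for likeness to Scd1 or AC151478.3 or for a small p by diet, so these 12 are not set against chance.

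Among the members, Scd2 was at 1239 CPM in Restricted 1, against 223 to 598 CPM in the other Restricted libraries. AC151478.3 was at 7.54 CPM in Restricted 1, against 0.565 to 3.82 CPM in the others. Scd1, Scd3 and Scd4 gave no such gap in either diet, and neither did the ratios of Scd2 and AC151478.3 to Scd1. Restricted 1 also held the most skeletal muscle transcripts, 3706 CPM, whose part in these values was not tested.

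Of the other named genes, Restricted 1 stood apart for Elovl6 (771 CPM, the others 34.4 to 377), Acly (4412 CPM, the others 340 to 1937), Insig1 (550 CPM, the others 108 to 301), Cyb5b (828 CPM, the others 281 to 507) and Mogat2 (29.6 CPM, the others 5.73 to 12.2). It did so too for G6pdx (707 CPM, the others 253 to 430), Gapdh (1393 CPM, the others 364 to 866) and Mpc1-ps (76.7 CPM, the others 17.6 to 43.7). In Control libraries, Acsl3 was at 20.4 CPM in Control 8 (the others 10.1 to 15.4) and Gpam at 883 CPM in Control 9 (the others 409 to 612).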

How the results depend on the processing

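Scd1, Scd3, Scd4 and AC151478.3 kept a positive diet value under each alternative of the diet fit (a filter at a mean of 1 CPM removed Scd4): Scd1 0.59 to 0.92 on the log2 scale, Scd3 0.39 to 0.90, Scd4 0.19 to 1.19 and AC151478.3 0.88 to 2.04. The family share difference stayed between 2.06 and 2.58 points. Scd2 ran from -0.030 to 0.66 with 1 library left out, and was -0.14 without the 6 libraries with muscle transcripts. The muscle alternatives were added after the data were seen. The cause of the changes below was not tested, but smaller subsets hold fewer libraries.

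Genes called by diet, 2146 with all libraries, were 400 in libraries marked No alone, 239 in Yes alone, 353 with the RNA integrity number (17 libraries), 1286 with a replicate block, 383 in replicates 1 to 5, 174 in replicates 6 to 10 and 895 without the 6. The split of 1064 higher and 1082 lower became 398 and 1913 with plain library totals, 599 and 855 with no filter, 456 and 830 with the replicate block. Under the replicate block the diet value was 0.68 for Scd1, 0.27 for Scd2 and 1.13 for AC151478.3. Same-numbered libraries correlated at -0.611 to 0.526 after centring by diet, and at -0.156 to 0.118 after centring by diet and label. These values cannot decide whether replicate numbers pair libraries, and the main fit assumes no pairing. Genes called by label, 1044, were 0 in replicates 6 to 10 alone.

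List calls higher by diet were 0 in Yes alone, replicates 1 to 5 and replicates 6 to 10 for each of the 5 lists. In No alone they were 0, but 1 for control of Scd1 transcription. De novo lipogenesis (4) had 1 with the integrity number, 0 with the block and 0 without the 6, and 2 to 6 with 1 library left out. Electron transfer (2) had 1 with upper-quartile factors, no filter, the integrity number or the block, 0 with plain totals or without the 6, and 1 to 2 with 1 library left out. Control of Scd1 transcription had 0 with the integrity number and 1 without the 6. Acyl transfer (1) had 2 with DESeq2, 0 with the integrity number or without the 6, and 0 to 3 with 1 left out. Adipocyte markers (2) had 1 with plain totals, no filter or the muscle index, 0 with the integrity number or without the 6, and 1 to 2 with 1 left out. Genes near Scd1 (2) had 0 in No alone, Yes alone, both replicate subsets and with the integrity number, 1 with upper-quartile factors, plain totals, no filter, the block, without the 6, the muscle index or the filter with the diets as groups, and 0 to 2 with 1 left out.

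Label values, none called, changed sign: Scd1 to 0.049 with the integrity number and 0.010 in replicates 6 to 10 (-0.25 to 0.033 with 1 left out), Scd2 to -0.33 without the 6 (-0.16 to 0.52), Scd3 to -0.17 with the block (-0.030 to 0.38), and AC151478.3 to -0.51 with the block, -0.57 without the 6 and -0.082 with the muscle index (-0.49 to 0.64). The log2 ratio of AC151478.3 to Scd1 by label was -0.26 in replicates 1 to 5, -0.16 without the 6 and -0.30 to 0.38 with 1 left out.

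Diet values of named genes that changed sign, none called with all libraries, were as follows. Without the 6, Fasn was -0.24, Acly -0.47, Thrsp -0.056, Srebf1 -0.040, Cyb5b -0.15, Cyb5r3 -0.0067, Gapdh -0.10, Cpn1 0.30, Kif13a -0.029 and Hif1an -0.048. With plain totals, Hif1an was -0.085, Cwf19l1 -0.039, Bloc1s2 -0.0040, Ndufb8 -0.0013 and Kif13a -0.064. With the block, Acly was -0.16 and Kif13a -0.014. In replicates 6 to 10, Srebf1 was -0.041, AC151478.1 -0.24, Wnt8b -0.23 and Kif13a -0.0093. In Yes alone, Hif1an was -0.012, Cwf19l1 -0.029 and Bloc1s2 -0.082, and in No alone Kif13a -0.0022 and Chuk 0.0096. With the integrity number, Bloc1s2 was -0.16 and Sec31b 0.0071, and Bloc1s2 was -0.15 in replicates 1 to 5. Hif1an was -0.0028 with upper-quartile factors and -0.0015 without the label. With 1 library left out, ranges crossed 0 for Fasn (-0.061 to 0.82), Acly (-0.37 to 0.78), Cyb5b (-0.10 to 0.29), Gapdh (-0.041 to 0.41), Kif13a (-0.034 to 0.059), Bloc1s2 (-0.022 to 0.18), Hif1an (-0.015 to 0.041), Sec31b (-0.082 to 0.0034) and Cpn1 (-0.85 to 0.0037). Depth limits Scd3, Scd4 and AC151478.3, with 5 to 134 counts a library.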
